A study of Mus musculus with 12 samples.

Results

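The genes described here are 39 genes of mitosis and cytokinesis, followed in murine jejunal enteroids that lacked Hdac1 or Hdac2. They were chosen by symbol, as known genes of cell division and with earlier results of these data known, and all 39 were listed in the count tables of both mutants, among 17972 genes listed in both and 18929 in either. By role, 10 act at mitotic entry, 7 in the spindle checkpoint and anaphase, 8 at the centromere and kinetochore, 5 on the spindle, 3 on chromosome structure and 6 in cytokinesis. Enteroids are epithelial cultures grown from intestinal crypts, in which stem and transit-amplifying cells divide and differentiated cells arise. RNA-Seq libraries were made from 3 groups after 5 days of growth in ENR medium, with 4 libraries per group. Control enteroids, named both wild-type and villin-Cre control, had intact histone deacetylase genes, whereas Hdac1-deficient and Hdac2-deficient enteroids came from mice with floxed Hdac1 or floxed Hdac2 alleles crossed with villin-Cre, all in a mixed background that includes C57BL/6J and CD1. Villin-Cre acts in intestinal epithelial cells, so the floxed genes were deleted in the epithelium. The age of the mice is not given in the sources used here. Since crypts are described as coming from 1 mouse per genotype, the libraries may all trace to 1 animal per group, p-values measure the spread between these libraries, which may be technical, and the genotype cannot be told apart from the mouse and line.

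Entry into mitosis is driven by cyclin-dependent kinase 1 bound to cyclin B, with Polo-like kinase 1 and Aurora kinase A amplifying the switch. The kinetochore then couples each chromosome to spindle microtubules, and the checkpoint holds back the anaphase-promoting complex until every chromosome is attached. Once it is active, this ubiquitin ligase destroys securin and cyclin B, after which separase parts the sister chromatids and the central spindle guides the contractile ring. Most of these genes are transcribed late in the cell cycle, from promoters with a CCAAT box and a cell cycle genes homology region (CHR), and their mRNA levels rise and fall with the share of cycling cells. In the jejunal crypt such cells are the stem and transit-amplifying cells. HDAC1 and HDAC2 remove acetyl groups from histones as part of shared corepressor complexes.

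Gene counts summed to 20693200 to 30658628 per library, and every library held at least 186 counts of each of the 39 genes. Levels are given as CPM, counts scaled to the library total with TMM factors, and each mean is given ± SD over n = 4 libraries. Hdac1 was counted at 94.5, 88.0, 90.005 and 89.9 CPM in the 4 control libraries and at 3.38, 3.66, 5.08 and 4.79 CPM in the Hdac1-deficient libraries. Hdac2 was counted at 140.0, 136, 132 and 140.2 CPM in control and at 77.9, 78.8, 73.7 and 73.2 CPM in Hdac2-deficient libraries, where counts over the whole gene include any exons that the deletion leaves. Each deleted gene was thus lowest in the 4 libraries that carry its name. The deacetylase gene that was not deleted was also below control. Hdac2 was at 112 ± 3.83 CPM in Hdac1-deficient libraries, against 137 ± 3.85 CPM in control. Hdac1 was at 75.3 ± 4.39 CPM in Hdac2-deficient libraries, against 90.6 ± 2.76 CPM in control. Intestinal epithelium markers such as Vil1, Cdx2 and Epcam were present in every library, with summed levels over 11 genes of 8248 to 8559 CPM in control libraries, 9063 to 9266 CPM without Hdac1 and 10470 to 10830 CPM without Hdac2. Of 14 mesenchymal, immune and endothelial markers, 8, including Col3a1, Cd3e and Kdr, were not among the genes listed in both tables, and the other 6 summed to between 2.58 and 3.48 CPM in any library.

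Transcripts of the mitotic genes were lower in both mutants. In Hdac1-deficient enteroids 31 of the 39 fell, 1 rose (Cdca3) and 7 did not pass the test. The test was edgeR's quasi-likelihood test, with a limit of 0.05 on the p adjusted over all tested genes. In Hdac2-deficient enteroids 37 fell, Cdca3 rose and Mki67 did not pass. Over all 14246 genes tested for Hdac1, 31.9% fell and 32.7% rose, and over the 14007 tested for Hdac2, 30.9% fell and 31.4% rose. The 79.5% and 94.9% of mitotic genes that fell thus stand beside an even split of all tested genes. Those genes were not matched to the 39 in level, and genes with few counts are harder to call. The median log2 fold change of the 39 genes was -0.24 without Hdac1 and -0.34 without Hdac2, whereas the median over all tested genes was -0.004 in each. The changes were small in size. No mitotic gene passed the test with more than a 2-fold change in Hdac1-deficient enteroids, where 10.6% of all tested genes did. Pttg1 alone did so in Hdac2-deficient enteroids, where 8.3% of all tested genes did. The changes were nevertheless larger than the spread between libraries for most genes. All 4 Hdac1-deficient libraries lay below all 4 control libraries for 30 of the 39 genes, against 30.4% of all tested genes, and all 4 Hdac2-deficient libraries did so for 35, against 28.4%. Summed over the 39 genes, libraries held 3563 to 3787 CPM in the control group, 2844 to 3073 CPM without Hdac1 and 2742 to 2875 CPM without Hdac2. In bulk RNA, fewer dividing cells and less RNA of these genes per dividing cell cannot be told apart. The 2 comparisons with control share the same 4 control libraries.

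**Figure D1:**
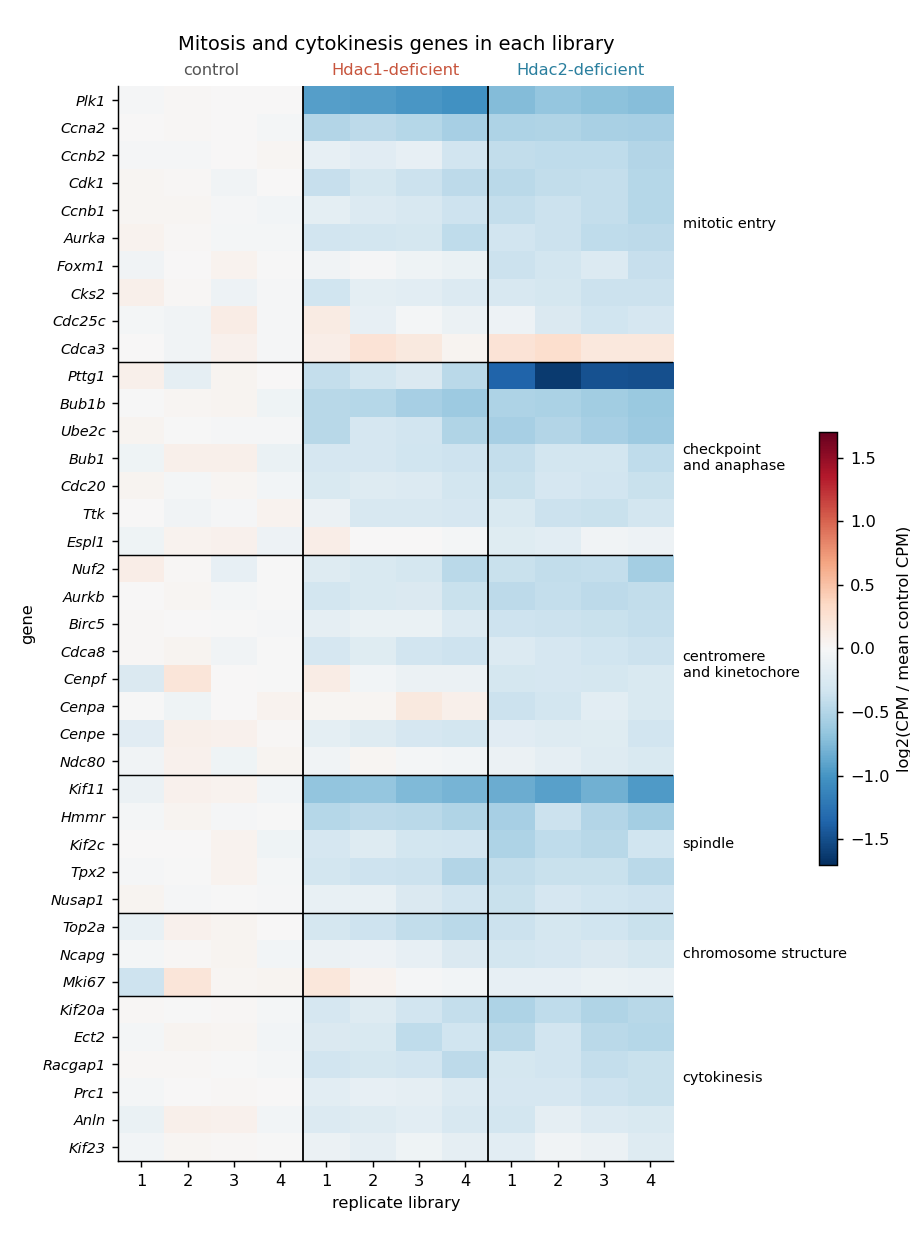
Log2 ratio of each library's CPM to the mean control CPM (colour) for the 39 genes (vertical axis, grouped by role) in the 12 libraries (horizontal axis, 4 replicates for each of 3 groups). Most rows are blue in all 8 mutant libraries, darkest for Plk1 and Kif11 in both mutants and for Pttg1 in the Hdac2-deficient libraries, and the row of Cdca3 is red.

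The promoters of 4 genes are shown because these genes mark the extremes of the set: Plk1 and Kif11 fell most in Hdac1-deficient enteroids, Pttg1 fell most in Hdac2-deficient enteroids, and Cdca3 rose in both. Kif11 lies on chromosome 19, where the median log2 fold change of protein-coding genes was -0.53 without Hdac1. Each window is taken from RefSeq on GRCm38.p6 and runs from 250 bases before to 50 bases after the annotated start, in the direction of transcription. Capitals mark CHR letters (TTTGAA or TTCGAA) and CCAAT letters on either strand, so TTCAAA and ATTGG are the same letters read from the other strand.
Plk1 (GRCm38.p6, chr7:122159185-122159484, + strand): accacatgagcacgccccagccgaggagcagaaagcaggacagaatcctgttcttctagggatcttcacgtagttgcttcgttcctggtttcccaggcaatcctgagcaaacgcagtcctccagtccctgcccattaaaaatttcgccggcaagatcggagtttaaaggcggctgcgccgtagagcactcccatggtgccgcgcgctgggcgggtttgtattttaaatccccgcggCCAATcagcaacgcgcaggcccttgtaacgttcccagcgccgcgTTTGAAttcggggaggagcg
Kif11 (GRCm38.p6, chr19:37376132-37376431, + strand): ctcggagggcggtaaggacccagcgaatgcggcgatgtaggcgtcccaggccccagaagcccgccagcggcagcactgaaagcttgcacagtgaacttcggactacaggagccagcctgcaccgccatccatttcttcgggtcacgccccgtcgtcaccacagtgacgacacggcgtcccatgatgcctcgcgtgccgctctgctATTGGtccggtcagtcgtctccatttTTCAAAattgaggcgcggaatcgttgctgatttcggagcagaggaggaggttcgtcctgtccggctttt
Pttg1 (GRCm38.p6, chr11:43425932-43426231, - strand): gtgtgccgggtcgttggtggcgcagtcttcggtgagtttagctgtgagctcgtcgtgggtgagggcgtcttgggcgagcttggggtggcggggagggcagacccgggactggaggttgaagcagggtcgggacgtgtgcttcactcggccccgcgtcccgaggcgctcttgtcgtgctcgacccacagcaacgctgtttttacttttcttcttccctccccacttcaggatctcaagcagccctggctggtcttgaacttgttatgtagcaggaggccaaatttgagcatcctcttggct
Cdca3 (GRCm38.p6, chr6:124829926-124830225, + strand): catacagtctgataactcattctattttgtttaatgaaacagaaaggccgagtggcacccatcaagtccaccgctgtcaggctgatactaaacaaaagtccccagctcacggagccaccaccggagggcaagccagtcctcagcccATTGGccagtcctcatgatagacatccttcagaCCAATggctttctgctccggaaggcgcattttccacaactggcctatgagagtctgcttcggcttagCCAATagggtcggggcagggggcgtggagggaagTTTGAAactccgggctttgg
In the Plk1 window CCAAT began at position -14 and TTTGAA at position 31 relative to the annotated start. The Kif11 window held both letters on the reverse strand, with ATTGG at -45 and TTCAAA at -19. The Cdca3 window held 3 CCAAT matches, at -104, -71 and -4, and TTTGAA at 31, as in Plk1. No match was found in the Pttg1 window. The annotations place some starts differently: the RefSeq starts of Plk1 and Kif11 lie 4 and 21 bases before the outermost GENCODE start, whereas those of Pttg1 and Cdca3 lie 270 and 629 bases inside the GENCODE gene. The Pttg1 and Cdca3 windows are therefore wholly inside the genes as GENCODE bounds them, and the sequence before their outermost starts was not searched.

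Windows were found for 33 of the 39 genes, of which Ect2 and Prc1 had 2, and none for Ccna2, Cdc25c, Foxm1, Aurkb, Tpx2 and Kif20a. A CHR match was present in 26 of the 33 (78.8%), against 21.7% of the 27025 genes in the promoter table and 16.2% of the 10038 other genes tested in the 12 libraries that had a window. CCAAT was also present in 26 (78.8%), against 41.1% of all genes and 42.9% of the other tested genes. Both were present in 23 genes (69.7%), against 8.61% of all genes and 6.7% of the other tested genes. The windows of 4 genes, Pttg1, Cdca3, Cdca8 and Kif2c, lay wholly inside the GENCODE gene, and of the other 29 genes 23 had CHR letters, 24 had CCAAT and 21 had both. The letters TTTGGCGC, TTTCCCGC, TTTGCCGC and TTTCGCGC, forms of the site bound by E2F factors, were found on either strand in 2 genes, Cdk1 and Ncapg (6.06%, against 2.6% of all genes and 4.6% of the other tested genes). Matches of different motifs or strands overlapped in 2 windows. The 26 genes with CHR letters had median log2 fold changes of -0.25 (without Hdac1) and -0.33 (without Hdac2), and the 7 genes lacking them had -0.23 and -0.36. These matches are descriptions of letters, without a test.

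**Figure D2:**
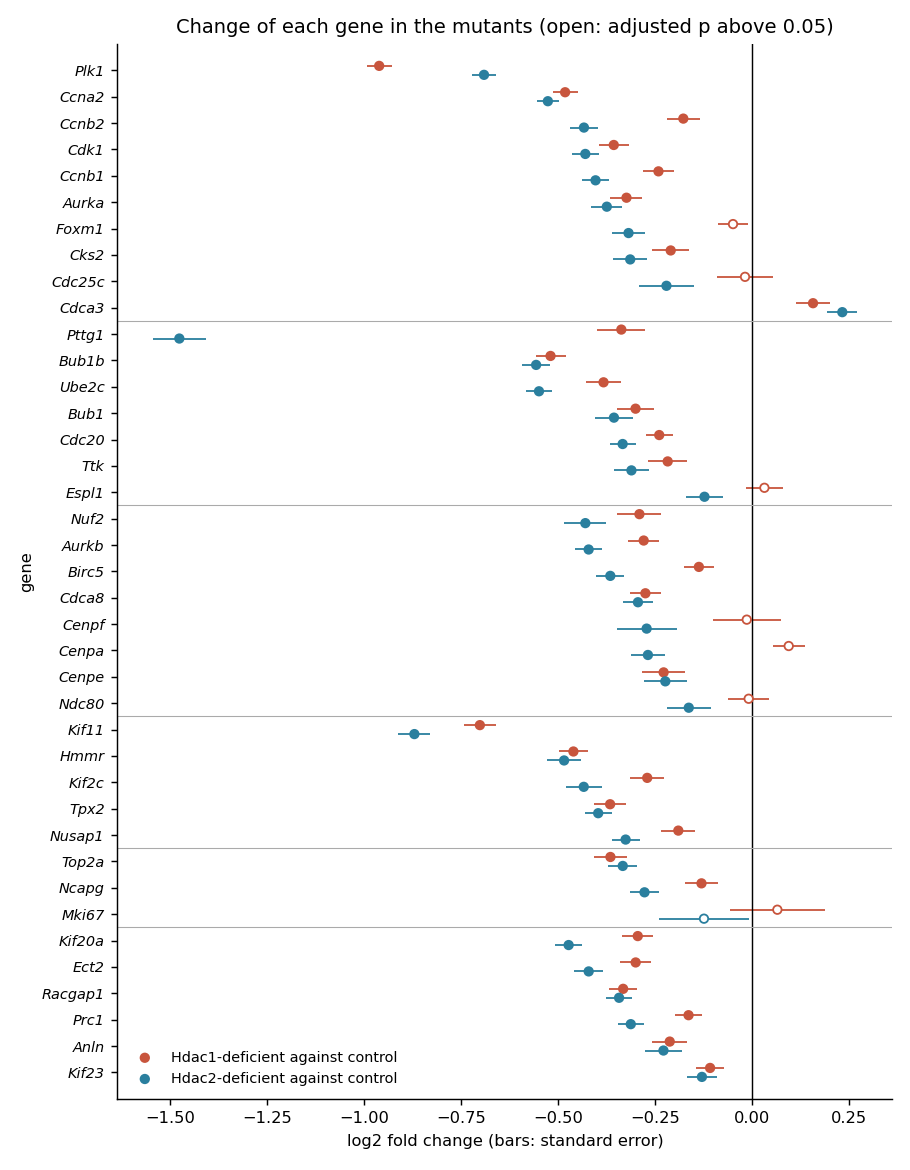
Log2 fold change against control (horizontal axis, bars are standard errors) of the 39 genes (vertical axis, grouped by role) in Hdac1-deficient and Hdac2-deficient enteroids, from 4 libraries per group. Filled points passed an adjusted p of 0.05; the 7 open points of the Hdac1 comparison lie between -0.05 and 0.10, and the single open point of the Hdac2 comparison is Mki67.

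Among the 10 genes of mitotic entry, 7 fell and 1 rose in Hdac1-deficient enteroids, and 9 fell and 1 rose in Hdac2-deficient enteroids. Plk1 encodes Polo-like kinase 1, which acts from centrosome maturation to cytokinesis, and per kilobase of exon it was the most abundant of the 39 in control, at 75.7 CPM per kb. Its levels were 165, 168, 166 and 167 CPM in control, 87.1, 85.8, 83.6 and 81.8 CPM in Hdac1-deficient and 100.2, 106, 103 and 101 CPM in Hdac2-deficient libraries. The 3 groups did not overlap, and the Hdac1-deficient libraries were the lowest. Plk1 fell by 48.6% in Hdac1-deficient enteroids (log2 fold change -0.96 ± 0.03 SE, adjusted p = 2.17e-15) and fell by 38.0% in Hdac2-deficient enteroids (-0.69 ± 0.03, adjusted p = 3.06e-14). The gene (ENSMUSG00000030867, + strand) lies on chromosome 7 of GRCm38 from 122159439 to 122169873.

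Ccna2 encodes cyclin A2, which partners the cyclin-dependent kinases from S phase into mitosis. The libraries held 233, 236, 234 and 228 CPM in control, 165, 172, 166 and 158 CPM in Hdac1-deficient and 162, 164, 158 and 157 CPM in Hdac2-deficient libraries. Mutant and control libraries were well separated and the 2 mutants overlapped. Its log2 fold change was -0.48 ± 0.03 (adjusted p = 7.37e-11) without Hdac1 and -0.53 ± 0.03 (adjusted p = 7.19e-13) without Hdac2.

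Cdk1, the kinase that drives mitotic entry, was counted at 109, 107, 102 and 107 CPM in control, at 81.1, 86.6, 82.6 and 78.3 CPM in Hdac1-deficient and at 77.7, 79.8, 80.0 and 75.9 CPM in Hdac2-deficient libraries. It fell by 21.9% (-0.36 ± 0.04, adjusted p = 9.04e-08) in the former and fell by 25.7% in the latter (-0.43 ± 0.03, adjusted p = 5.46e-10), and the mutants overlapped. Its partner Ccnb1, cyclin B1, was counted at 101, 101, 97.8 and 96.2 CPM in control, at 87.9, 84.1, 82.2 and 77.8 CPM in Hdac1-deficient and at 74.7, 76.9, 74.7 and 71.1 CPM in Hdac2-deficient libraries. Here the 3 groups formed 3 separate ranges, with log2 fold changes of -0.24 ± 0.04 (adjusted p = 2.02e-05) and -0.40 ± 0.03 (adjusted p = 1.84e-09). Ccnb2, the second mitotic cyclin B, was counted at 72.6, 72.4, 73.6 and 74.7 CPM in control, at 66.8, 64.3, 66.8 and 58.8 CPM in Hdac1-deficient and at 54.7, 54.4, 54.6 and 51.8 CPM in Hdac2-deficient libraries. Again the groups did not overlap, and the log2 fold changes were -0.18 ± 0.04 (adjusted p = 0.00113) and -0.43 ± 0.04 (adjusted p = 1.12e-09).

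Aurka, the Aurora kinase of centrosomes and spindle poles, was counted at 63.7, 62.1, 59.6 and 59.7 CPM in control, at 49.0, 49.5, 49.7 and 45.6 CPM in Hdac1-deficient and at 49.1, 47.7, 45.4 and 45.2 CPM in Hdac2-deficient libraries. The mutants covered the same range below control, at -0.32 ± 0.04 (adjusted p = 1.01e-06) and -0.37 ± 0.04 (adjusted p = 5.75e-08). Cks2, which encodes a small subunit of the Cdk1 complex, fell by less, to log2 values of -0.21 and -0.31 relative to control.

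Foxm1 encodes the forkhead factor that activates late cell cycle genes. It was counted at 54.0, 56.6, 58.6 and 55.9 CPM in control, at 54.2, 55.6, 53.5 and 52.1 CPM in Hdac1-deficient and at 43.5, 45.2, 47.9 and 42.8 CPM in Hdac2-deficient libraries. The Hdac2-deficient libraries lay below all others (-0.32 ± 0.04, adjusted p = 1.54e-06), while Hdac1-deficient and control libraries overlapped (-0.05 ± 0.04, adjusted p = 0.294). Cdc25c, the phosphatase that activates Cdk1 and the least abundant of the 39 at 2.58 CPM per kb in control, had a similar pair of values, -0.02 (adjusted p = 0.844) and -0.22 (adjusted p = 0.0107).

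Cdca3, which encodes a protein linked to the timing of mitotic entry, went the other way. Its levels were 62.9, 60.3, 65.6 and 61.6 CPM in control, 68.0, 73.4, 70.3 and 64.9 CPM in Hdac1-deficient and 73.7, 76.5, 71.2 and 70.7 CPM in Hdac2-deficient libraries. All Hdac2-deficient libraries lay above control, whereas 1 Hdac1-deficient library lay within the control range. The log2 fold changes were 0.16 ± 0.04 (adjusted p = 0.00312) and 0.23 ± 0.04 (adjusted p = 2.07e-05).

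**Figure D3:**
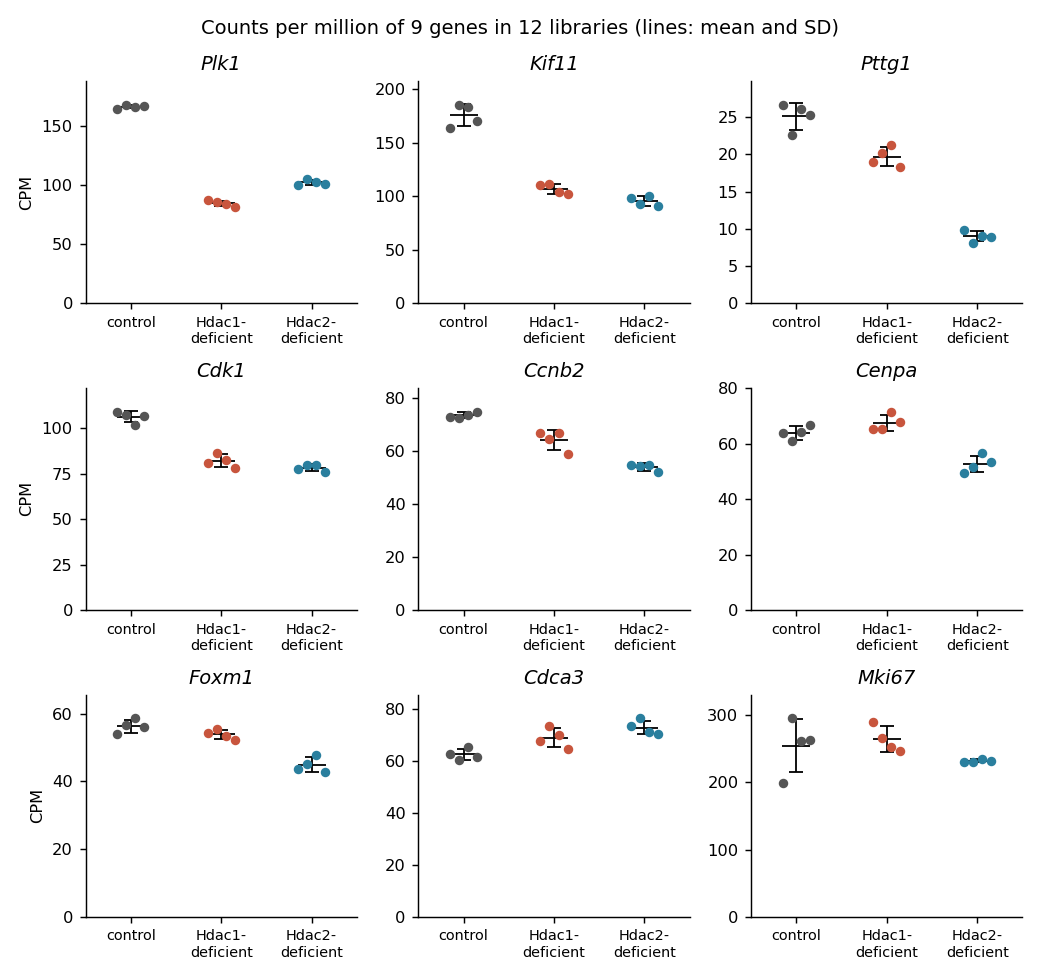
CPM (vertical axis, from 0) of 9 genes in the 4 libraries of each group (points), with the mean and SD as lines. Plk1, Kif11 and Cdk1 are lower in both mutants, Pttg1, Cenpa and Foxm1 are lowest in the Hdac2-deficient libraries, Cdca3 is higher in both mutants, and control libraries of Mki67 run from 199.7 to 295 CPM.

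In the spindle checkpoint and anaphase group, 6 of 7 genes fell without Hdac1 and all 7 without Hdac2. Pttg1 encodes securin, the inhibitor that holds separase inactive until anaphase. The libraries held 26.7, 22.6, 26.0 and 25.3 CPM in control, 19.02, 20.2, 21.2 and 18.3 CPM in Hdac1-deficient and 9.77, 8.13, 9.0 and 8.94 CPM in Hdac2-deficient libraries. The 3 groups were separate, and the widest gap lay between the mutants. Pttg1 fell by 64.1% in Hdac2-deficient enteroids (-1.48 ± 0.07, adjusted p = 9.99e-14) and fell by 20.8% in Hdac1-deficient enteroids (-0.34 ± 0.06, adjusted p = 7.92e-05). The gene (ENSMUSG00000020415) lies on chromosome 11 of GRCm38 from 43420250 to 43426251. No annotated pseudogene in the transcript set matched it with at least 95% identity over at least 150 bases.

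Bub1b encodes BubR1, a component of the mitotic checkpoint complex. It was counted at 112, 116, 117 and 108 CPM in control, at 81.3, 80.6, 76.8 and 74.02 CPM in Hdac1-deficient and at 78.9, 78.1, 75.4 and 73.0 CPM in Hdac2-deficient libraries. Control stood apart from mutants that overlapped each other, with log2 fold changes of -0.52 ± 0.04 (adjusted p = 4.16e-10) and -0.56 ± 0.04 (adjusted p = 1.68e-11). The checkpoint kinases Bub1 and Ttk fell by less, Bub1 with -0.30 and -0.36 and Ttk with -0.22 and -0.31 (Hdac1 and Hdac2 comparison). Of the genes for the anaphase-promoting complex, Ube2c, its ubiquitin-conjugating enzyme, had -0.38 and -0.55, and Cdc20, its activator, had -0.24 and -0.33. Espl1, which encodes separase, had 0.03 (adjusted p = 0.566) in Hdac1-deficient and -0.12 (adjusted p = 0.032) in Hdac2-deficient enteroids, where its libraries overlapped control at 36.98 to 40.9 CPM against 40.3 to 45.0 CPM. That call was lost with DESeq2 (adjusted p = 0.0527) and without control replicate 2 (0.0913), control replicate 3 (0.0974), Hdac2-deficient replicate 1 (0.119) or Hdac2-deficient replicate 2 (0.093).

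Of the 8 centromere and kinetochore genes, 5 fell without Hdac1 and 8 fell without Hdac2, and whether these counts differ was not tested. Cenpa encodes the histone H3 variant that marks centromeres. Its levels were 63.9, 60.9, 64.1 and 66.7 CPM in control, 65.3, 65.4, 71.6 and 67.7 CPM in Hdac1-deficient and 49.4, 51.5, 56.5 and 53.5 CPM in Hdac2-deficient libraries. Hdac2-deficient libraries lay below every other library (-0.27 ± 0.04, adjusted p = 1.98e-05). In Hdac1-deficient enteroids its log2 fold change was 0.10 ± 0.04 (adjusted p = 0.0529), which passed as an increase with size factors from relative log expression (adjusted p = 0.0473) and without control replicate 4 (0.0349), Hdac1-deficient replicate 1 (0.0437) or Hdac1-deficient replicate 2 (0.0441).

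Aurkb, the kinase of the chromosomal passenger complex, which corrects faulty attachments, was counted at 75.02, 76.3, 72.6 and 73.9 CPM in control, at 60.0, 62.4, 63.0 and 57.5 CPM in Hdac1-deficient and at 54.5, 56.0, 54.8 and 55.5 CPM in Hdac2-deficient libraries. Its 3 groups did not overlap, at -0.28 ± 0.04 (adjusted p = 3.48e-06) and -0.42 ± 0.03 (adjusted p = 1.13e-09). Its partners in the complex also fell in both mutants, Birc5 (survivin) with log2 values of -0.14 and -0.37 and Cdca8 (borealin) with -0.27 and -0.29. Of the NDC80 complex, which binds microtubules, Nuf2 fell in both mutants (-0.29 and -0.43), while Ndc80 had -0.01 (adjusted p = 0.903) and -0.16 (adjusted p = 0.0173). The Ndc80 call in Hdac2-deficient enteroids was lost without control replicate 2 (adjusted p = 0.0566) or Hdac2-deficient replicate 4 (0.0506). Cenpe, a kinetochore motor, fell in both mutants (-0.23 and -0.22) although 1 control library, replicate 1 at 56.8 CPM, lay within the mutant range, and Cenpf, a large kinetochore protein, had -0.01 (adjusted p = 0.904) and -0.27 (adjusted p = 0.0105).

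All 5 spindle genes fell in both mutants. Kif11 encodes the kinesin Eg5, which pushes the spindle poles apart. The libraries held 164, 185, 183 and 170.0 CPM in control, 111, 111, 104 and 102 CPM in Hdac1-deficient and 98.0, 92.99, 100.1 and 90.5 CPM in Hdac2-deficient libraries. The groups did not overlap, and its log2 fold changes were -0.70 ± 0.04 (adjusted p = 1.66e-11) and -0.87 ± 0.04 (adjusted p = 7.75e-13). Kif11 (ENSMUSG00000012443) is the only one of the 39 on chromosome 19, from 37376403 to 37421859, and protein-coding genes of that chromosome were lower as a whole. Their median log2 fold change was -0.53 over 471 genes without Hdac1 and -0.52 over 461 genes without Hdac2, while no other autosome had a median below -0.05 or above 0.12 in either comparison. Kif11 minus the chromosome 19 median was -0.17 and -0.35 on the log2 scale, and 137 and 55 of the chromosome 19 genes had lower log2 fold changes than Kif11. A change of Kif11 itself and a change of the chromosome as a whole cannot be told apart. With chromosome 19 left out, 30 of the other 38 genes fell without Hdac1 and 36 without Hdac2, beside 30.3% and 29.2% of all tested genes on other chromosomes.

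Of the other spindle genes, Hmmr, which encodes a microtubule-binding protein of the spindle poles, had log2 fold changes of -0.46 and -0.48, and Tpx2, the activator of Aurora A, had -0.37 and -0.40. Kif2c, a microtubule-depolymerising kinesin, had -0.27 and -0.43, and Nusap1, which bundles spindle microtubules, had -0.19 and -0.33. For each of these 4 genes, all libraries of both mutants lay below all control libraries. Of all tested genes, 30.4% lay so in the Hdac1 and 28.4% in the Hdac2 comparison, each taken singly.

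Among the genes of chromosome structure, Top2a and Ncapg fell in both mutants and Mki67 did not pass in either. Top2a, the topoisomerase that untangles sister chromatids, was counted at 384, 438, 432 and 418 CPM in control, at 339, 328, 313 and 305 CPM in Hdac1-deficient and at 326, 341, 329.7 and 321 CPM in Hdac2-deficient libraries. Mutant libraries lay below control and overlapped each other, with log2 fold changes of -0.36 ± 0.04 (adjusted p = 3.2e-07) and -0.33 ± 0.04 (adjusted p = 1.97e-07). Ncapg, a condensin subunit, had -0.13 (adjusted p = 0.0118) and -0.28 (adjusted p = 1.82e-06), and the former call was narrowly lost without Hdac1-deficient replicate 4 (-0.10).

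Mki67 encodes Ki-67, the coat protein of mitotic chromosomes that is widely used to mark cycling cells. It was counted at 199.7, 295, 261 and 264 CPM in control, at 290.5, 266, 253 and 247 CPM in Hdac1-deficient and at 231, 231, 235 and 233 CPM in Hdac2-deficient libraries. Control replicate 1 was the lowest of all 12 libraries, and the mean of 255 ± 40.0 CPM in control had the largest SD of any group. The log2 fold changes were 0.07 ± 0.12 (adjusted p = 0.664) without Hdac1 and -0.12 ± 0.12 (adjusted p = 0.398) without Hdac2. Without control replicate 1 they were -0.04 (adjusted p = 0.577) and -0.23 (adjusted p = 8.04e-07), so the Hdac2 comparison of Mki67 rests on that library.

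**Figure D4:**
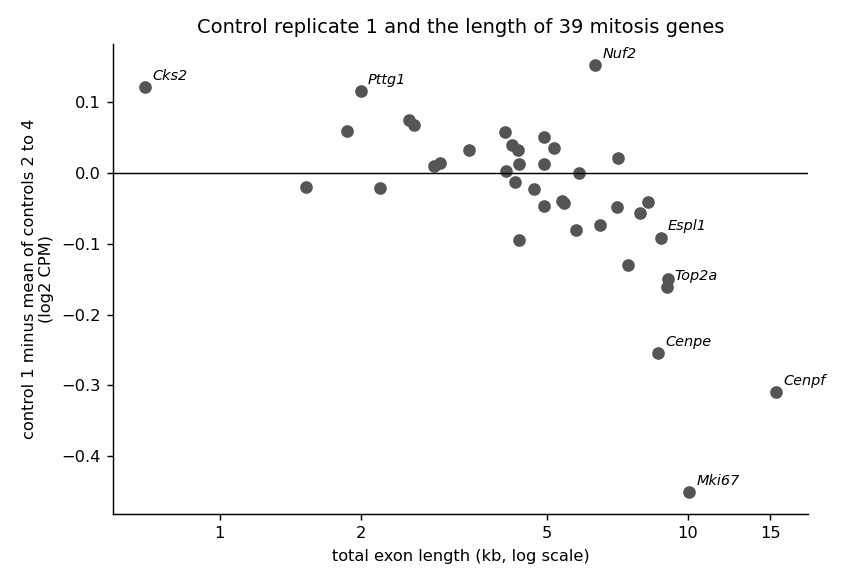
Difference in log2 CPM between control replicate 1 and the mean of control replicates 2 to 4 (vertical axis) against the total exon length in kb (horizontal axis, log scale) for the 39 genes (points). Mki67, Cenpf and Cenpe, among the longest, lie lowest at -0.45, -0.31 and -0.25, and Nuf2 lies highest at 0.15.

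Control replicate 1 was low for other long genes of the set as well. The 13 genes with at least 6 kb of exon had a median difference of -0.09 on the log2 scale between control replicate 1 and the other controls, and the other 26 had 0.01. Over the 39 genes, which share that library, the difference had a Spearman correlation with exon length of -0.72, and over 14456 tested genes of -0.41. In the other 11 libraries the same correlation over the 39 genes, each library against the rest of its group, lay between -0.42 and 0.61. Without control replicate 1, 31 genes fell in the Hdac1 and 38 in the Hdac2 comparison, and the part of transcript length in these values was not tested.

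All 6 cytokinesis genes fell in both mutants. Kif20a, a kinesin of the central spindle, had the largest decrease of the group in Hdac2-deficient enteroids, with log2 fold changes of -0.29 ± 0.04 (adjusted p = 2.74e-06) and -0.47 ± 0.04 (adjusted p = 2.17e-10). Racgap1, which with Kif23 forms the centralspindlin complex, had -0.33 and -0.34, while Kif23 had the smallest changes of the group at -0.11 (adjusted p = 0.0128) and -0.13 (adjusted p = 0.00587). Ect2, the exchange factor that activates RhoA at the cleavage site, had -0.30 and -0.42. Prc1, which bundles antiparallel microtubules, had -0.16 and -0.31, and Anln, a scaffold of the contractile ring, had -0.21 and -0.23. For each of the 6, all libraries of both mutants lay below all control libraries. Taken singly, this held for 30.4% of all tested genes in the Hdac1 and 28.4% in the Hdac2 comparison. The share of genes below control in both mutants at once was not computed.

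The direct comparison asked whether the mutants differed from each other. Of the 39 genes, 20 had higher levels without Hdac1 than without Hdac2 and 1, Plk1, had a lower level, against 22.3% and 23.7% of the 14510 genes tested. The median log2 difference was 0.13, beside 0.01 over all tested genes. Pttg1 was the single gene past a 2-fold difference, as were 5.62% of all tested genes, with a log2 difference of 1.14 ± 0.07 (adjusted p = 7.69e-13). The next largest were Cenpa at 0.36 ± 0.04 (adjusted p = 1.61e-07), Plk1 at -0.27 ± 0.03 (adjusted p = 6.33e-08) and Foxm1 at 0.27 ± 0.04 (adjusted p = 6.43e-06). For these 4 genes, which were picked for the size of this difference, the libraries of the 2 mutants did not overlap. The share of all tested genes without overlap between the mutants was not computed. Cyclin B differed between the mutants, with 0.25 ± 0.04 (adjusted p = 1.01e-05) for Ccnb2 and 0.16 ± 0.04 (adjusted p = 0.00104) for Ccnb1. Cdk1 had 0.07 ± 0.04 (adjusted p = 0.115), which passed without Hdac1-deficient replicate 4 (0.09, adjusted p = 0.0415). Bub1b had 0.03 ± 0.04 (adjusted p = 0.485), Top2a -0.03 ± 0.04 (adjusted p = 0.495) and Racgap1 0.01 ± 0.04 (adjusted p = 0.875). By role, 5 of the 8 centromere and kinetochore genes were higher in Hdac1-deficient enteroids, as were 4 of 10 at mitotic entry, 4 of 7 in the checkpoint and anaphase, 3 of 5 on the spindle, 1 of 3 on chromosome structure and 3 of 6 in cytokinesis. On chromosome 15, which carries Espl1 and Racgap1, the median log2 difference of 491 protein-coding genes was -0.16.

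Other genes of cell division were mostly lower as well. Beside them, 31.9% of all tested genes fell and 32.7% rose without Hdac1, and 30.9% fell and 31.4% rose without Hdac2. Of 104 other mitosis genes, 62 fell and 6 rose in Hdac1-deficient enteroids (median log2 fold change -0.17), and 85 fell and 3 rose in Hdac2-deficient enteroids (-0.29). The largest decrease in Hdac1-deficient enteroids was that of Cdc25b, a phosphatase that activates Cdk1, from 91.4 ± 1.05 to 53.5 ± 3.03 CPM (-0.76 ± 0.04, adjusted p = 2.96e-12). Large decreases also lay on chromosome 19, where Cep55, which acts in abscission, had -0.75 and -0.70, the cohesion regulator Cdca5 had -0.68 and -0.92, and the kinesin Kif20b had -0.73 and -0.85. With Incenp, the scaffold of the chromosomal passenger complex, these were the 4 other mitosis genes on chromosome 19, with a median of -0.72 in the Hdac1 and -0.84 in the Hdac2 comparison. Spc24, a subunit of the NDC80 complex, rose in Hdac1-deficient enteroids from 24.5 ± 1.79 to 29.4 ± 1.72 CPM (0.28 ± 0.06, adjusted p = 0.000256) and fell in Hdac2-deficient enteroids to 19.03 ± 0.679 CPM (-0.36 ± 0.06, adjusted p = 1.22e-05). Myh9, a non-muscle myosin heavy chain on chromosome 15, rose in Hdac2-deficient enteroids (0.23 ± 0.05, adjusted p = 0.00084). In that comparison the median over 478 protein-coding genes of chromosome 15 was 0.12, and its part in the change of Myh9 was not tested. Myh10, a relative of Myh9, had 1 to 3 counts per control library, 24 to 29 per Hdac1-deficient and 19 to 26 per Hdac2-deficient library, ratios of 14.8 (95% exact interval 6.94 to 37.7) and 14.1 (6.56 to 36.1) that cover counting error only.

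DNA replication genes, which act before mitosis in the cell cycle, were lower too, with 33 of 40 lower and 2 higher in Hdac1-deficient enteroids (median -0.30) and 37 lower and 2 higher in Hdac2-deficient enteroids (median -0.41). Of all tested genes, 31.9% were lower and 32.7% higher without Hdac1, and 30.9% were lower and 31.4% higher without Hdac2. The flap endonuclease Fen1, on chromosome 19, fell from 102 ± 6.09 CPM to 61.5 ± 3.59 and 55.3 ± 1.86 CPM (-0.72 and -0.88). Pold1, the catalytic subunit of DNA polymerase delta, fell from 96.4 ± 4.51 to 63.0 ± 3.76 CPM in Hdac1-deficient enteroids (-0.60 ± 0.04, adjusted p = 3.93e-10), and E2f1, an activator of S phase genes, fell from 28.2 ± 0.838 to 18.01 ± 1.4 CPM in Hdac2-deficient enteroids (-0.64 ± 0.06, adjusted p = 2.57e-09). The 2 genes that rose in both mutants were Pcna, the polymerase clamp (0.17 and 0.14), and the transcription factor E2f2, which went from 39.2 ± 1.26 CPM to 96.7 ± 4.89 and 65.1 ± 1.79 CPM (1.32 and 0.74).

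**Figure D5:**
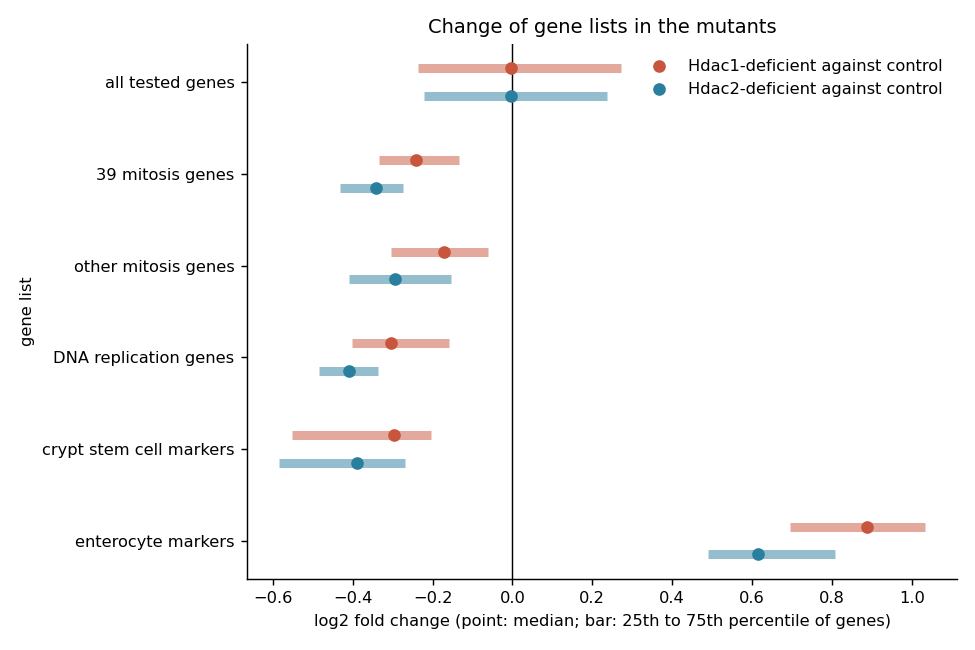
Median log2 fold change against control (points) with the 25th to 75th percentile of genes (bars) for 6 gene lists in Hdac1-deficient and Hdac2-deficient enteroids. The 39 mitosis genes, other mitosis genes, DNA replication genes and crypt stem cell markers lie below 0, all tested genes are centred at 0, and enterocyte markers lie above 0 at 0.89 and 0.61.

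Markers of crypt and differentiated cells were set beside the mitotic genes. Among all tested genes, 31.9% fell and 32.7% rose without Hdac1, and 30.9% fell and 31.4% rose without Hdac2. Of 12 crypt stem cell markers, among them Lgr5 and Olfm4, 9 fell and 1 rose in Hdac1-deficient enteroids, and 10 fell and 1 rose in Hdac2-deficient enteroids, and they summed to 5192 to 5333 CPM in control libraries, 3186 to 3703 CPM without Hdac1 and 2928 to 3178 CPM without Hdac2. All 14 enterocyte markers, among them Sis and Apoa4, rose in each mutant, from a sum of 17220 to 18510 CPM in control to 30390 to 34950 and 24490 to 28070 CPM. Of 10 goblet cell markers, 4 rose and 2 fell in Hdac1-deficient and 8 rose in Hdac2-deficient enteroids, with sums of 1929 to 2158, 2015 to 2156 and 3097 to 3329 CPM in control, Hdac1-deficient and Hdac2-deficient libraries. Of 8 tested Paneth cell markers, 2 rose and 2 fell in Hdac1-deficient and 5 rose and 1 fell in Hdac2-deficient enteroids. Without Hdac1, the median log2 fold change was -0.04 over the goblet and 0.02 over the Paneth cell markers. Without Hdac2, it was 0.43 and 0.28. Over the 9 Paneth cell markers listed in both tables, sums were 2165 to 2518, 3120 to 3385 and 3414 to 3561 CPM in the 3 groups in the same order. Of the enteroendocrine markers, 8 of 12 tested rose and 1 fell without Hdac1, and 6 of 11 tested rose and 2 fell without Hdac2, with sums of 272 to 279 CPM in control libraries and 330.0 to 379.5 and 327.5 to 354 CPM in the mutants. Tuft cell markers were scarce, at 6.55 to 7.76, 7.0 to 9.57 and 4.9 to 5.74 CPM in sum over 7 genes, and 1 of 7 tested rose without Hdac1 while 2 of 6 tested fell without Hdac2. The part of these cell types in the levels of the mitotic genes was not tested.

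The genes whose pattern over the 12 libraries was most like the mean log2 CPM of the 39 were Parp1 (Pearson's r = 0.997), Topbp1 (0.995), Ptk7 (0.993), Hook1 (0.992) and Dtl (0.989), out of 14471 other genes. Parp1 and Topbp1 act in DNA repair and replication stress, and Dtl is a substrate receptor of a ubiquitin ligase active in S phase. The 12 libraries fall into 3 genotypes, so these correlations mainly describe the order of the group means. Parp1 had 210.0, 163 and 146 CPM on average in control, Hdac1-deficient and Hdac2-deficient enteroids, and Ptk7, a receptor of Wnt signalling, had 33.4, 19.2 and 14.7 CPM.

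Counts of some of the 39 genes could include reads of neighbours or copies. Exons of Ccna2, Kif20a, Ncapg, Prc1, Ube2c, Nusap1, Cdc20, Cdca8, Cdc25c and Plk1 overlap exons of a gene on the opposite strand, by 53 to 1271 bases, and Foxm1 and Top2a overlap genes on the same strand. Although the library kit marks strand, the strand setting used in counting is not given in the sources used here, so these values are uncertain to that extent. Pseudogenes that match with at least 95% identity over at least 150 bases exist for 7 genes, including Ccnb1, Cks2 and Racgap1. None of those pseudogenes held more than 43 counts in any library. The one with 43 counts, Mdm4-ps, is named for another gene and matches Cenpf over 165 bases only.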

How the data were processed

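RNA-Seq gene counts of 12 libraries, 4 per genotype as given in the labels, were analysed. The authors deposited, for each mutant with the same 4 control libraries, the raw count of reads per gene on GRCm38. Reads of 100 nucleotides, paired, were aligned with STAR (2.4.0f1 in the submitters' processing notes), and the counting program is not given in the sources used here. Normalized values that the authors deposited beside the counts (a score per gene and library) were not used, and neither were their columns of fold changes and p-values. The listed genes have at least 10 counts summed over the 8 libraries of a table, and the control counts agree exactly between the tables. Depth was 20693200 to 30658628 counts per library. Within groups, no pair of libraries was alike within sampling noise. Mean chi-square per gene, 1 from counting alone, ran from 1.56 (control replicates 2 and 3) to 8.99 (control replicates 1 and 2). Pairs across groups were not compared in this way.

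Counts were tested with edgeR (4.0.16, R 4.3.3), by the quasi-likelihood test with TMM factors and filterByExpr. Each mutant was compared with control in 8 libraries, and Hdac1-deficient with Hdac2-deficient enteroids in all 12. Benjamini-Hochberg adjustment was over all tested genes, and a call is an adjusted p of at most 0.05. The standard error is the log2 fold change divided by the square root of F. Log2 CPM used a prior count of 2. Gene positions and exon lengths (all exons of a gene merged) are from GENCODE M21, which holds 99.4% of the identifiers, and promoters are from RefSeq (GRCm38.p6). The scripts were tested on simulated counts. Python 3.11.15 (pandas 2.3.3, numpy 2.4.6, scipy 1.17.1, matplotlib 3.10.9) was used for tables and figures.

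The 39 genes, the other lists and the motifs were chosen with earlier results of these data known. Library values are given for, per mutant, the 4 largest increases and 4 largest decreases among called genes, the 4 largest differences between the mutants, Cdk1, Ccnb1, Ccnb2, Aurka, Aurkb, Plk1, Top2a, Mki67, Hdac1 and Hdac2. Of the other mitosis and the replication genes, the 2 largest increases and 2 largest decreases per mutant are named, and Incenp was named after its values were seen. The 5 genes most like the mean of the 39 were taken by Pearson's r. Alternatives were DESeq2 (1.42.0), relative log expression factors, library size alone, all listed genes tested, the replicate number as a block, a minimum mean of 10 counts, other sets of libraries in the fit, each library left out in turn and, added after seeing the data, chromosome 19 left out.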

Additional observations from a re-analysis of the deposited data

Results flagged for a closer look

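In 9 cases 1 library stood apart from the other 3 of its group, by a gap to its nearest neighbour that passed Dixon's 95% limit for 4 values. The 53 genes checked, the 39 and 14 named beside them, gave 159 groups, and chance flags about 1 in 20 groups. Among the 39 genes, Ccnb2 was at 51.8 CPM in Hdac2-deficient replicate 4, where the other 3 libraries had 54.4 to 54.7 CPM. Aurka was at 45.6 CPM in Hdac1-deficient replicate 4, against 49.0 to 49.7 CPM. Ttk was at 32.8 CPM in Hdac1-deficient replicate 1, against 28.7 to 29.0 CPM. Control replicate 1 was above the other controls for Ube2c, at 144 CPM against 137 to 138 CPM, and for Nusap1, at 71.1 CPM against 68.1 to 68.5 CPM. Ect2 was at 97.4 CPM in Hdac2-deficient replicate 2, against 87.5 to 88.8 CPM. Among the other genes, Cdc25b was at 89.8 CPM in control replicate 4, against 91.8 to 92.0 CPM, and Spc24 was at 32.0 CPM in Hdac1-deficient replicate 2, against 28.4 to 28.9 CPM. Hdac1 was at 68.8 CPM in Hdac2-deficient replicate 4, against 76.8 to 78.4 CPM.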

How the results depend on the processing

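Under every alternative run, the median log2 fold change of the 39 genes kept its sign: -0.27 to -0.22 in Hdac1-deficient and -0.37 to -0.34 in Hdac2-deficient enteroids against control, and 0.10 to 0.16 between the mutants. With each library left out in turn, 30 to 31 genes fell in Hdac1-deficient and 35 to 38 in Hdac2-deficient enteroids, and 16 to 23 had higher levels without Hdac1 than without Hdac2. The count of genes that rose in Hdac1-deficient enteroids was 1 or 2 with a library left out and 2 with relative log expression factors, Cenpa being the second. With the replicate block, 31 and 37 genes fell and 21 differed upwards between the mutants. Correlations of the deviations of same-numbered libraries lay between -0.05 and 0.09 over 12 pairs. Those of differently numbered libraries lay between -0.09 and 0.13. Whether same-numbered libraries share a culture day or batch was not tested. Of single genes, 2 changed side of the threshold under some alternative in the Hdac1 comparison, 3 in the Hdac2 comparison and 9 between the mutants, where Cdc25c, Cdc20, Espl1, Ndc80 and Ect2 lost the call and Cdk1, Cks2, Nuf2 and Mki67 gained it; no gene changed sign past the threshold. Between the mutants, adjusted p without 1 library rose past the limit for Cdc25c without Hdac1-deficient replicates 1 (0.139) or 3 (0.0562) or Hdac2-deficient replicates 2 (0.0682), 3 (0.0927) or 4 (0.0797). It did so for Cdc20 without Hdac1-deficient replicates 2 (0.0641) or 3 (0.084) or Hdac2-deficient replicates 1 (0.0965) or 4 (0.0926), and for Ndc80 without Hdac1-deficient replicate 2 (0.0626) or Hdac2-deficient replicates 3 (0.0622) or 4 (0.0895). It also did so for Ect2 without Hdac1-deficient replicates 1 (0.0756) or 2 (0.0547) or Hdac2-deficient replicates 1 (0.058), 3 (0.0552) or 4 (0.0697), and for Espl1 without Hdac2-deficient replicate 1 (0.0507). Calls were gained for Mki67 without control replicate 1 (0.00228), for Cks2 without control replicate 1 (0.0375) or Hdac1-deficient replicate 1 (0.0202), and for Nuf2 without control replicates 1 (0.0279) or 3 (0.0378), Hdac1-deficient replicate 4 (0.0086) or Hdac2-deficient replicate 1 (0.0459). With other settings, calls were gained for Mki67 with the 8 mutant libraries alone (0.000502), for Cdk1 (0.0303), Cks2 (0.0229) and Nuf2 (0.0215) with library size alone, and for Nuf2 with the replicate block (0.024), the 8 mutant libraries alone (0.0362) and a minimum mean of 10 counts (0.0441).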
